A study of Mus musculus with 24 samples.

Results

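The expression of 40 genes of skeletal muscle was followed in cartilage explants of mice, in hip caps and in metatarsals. The genes were taken by symbol from a list, 40 of 52178 genes in the deposited table, and all 40 had a row. The list, its roles and the setting apart of Tnni2 and Tnnt3 were chosen with earlier results of these data known. The 40 genes are thus no independent sample. They comprised 7 sarcomere proteins of all fibre types, 6 embryonic and fetal isoforms, 8 adult fast isoforms, 7 slow isoforms, 5 genes of excitation and its coupling to contraction, 5 myogenic transcription factors and, kept apart, the fast troponin subunits Tnni2 and Tnnt3. After the filter on low counts 35 of them were tested, and Tcap, Myh1, Myh2, Myl2 and Myf6 were not. Most members passed this filter through the metatarsals, where they were high, so that a difference between the tissues was partly built into which members could be tested. Hip caps were the avulsed femoral heads of 4-week-old male C57/BL6 mice (the strain in the labels, C57/BL6J in the study's methods), without subchondral bone, and each library pooled the 2 hip caps of 1 mouse. Metatarsals were cartilage rudiments of embryos of the same strain at embryonic day 15, of unknown sex, and each library pooled 6 bones. Both explants were cultured for 24 h, kept at 0 MPa (control) or placed under a hydrostatic pressure of 5 MPa (physiological) or 50 MPa (injurious) for 1 h, and cultured for 24 h more, with 4 libraries in each of the 6 groups. Per the study's methods hip caps were kept in Dulbecco's Modified Eagle Medium and metatarsals in alpha-MEM with albumin, beta-glycerophosphate and ascorbate. Tissue, age and medium differed together, and sex may have as well, so that they cannot be told apart in any comparison of hip caps with metatarsals. Nothing in the labels says that the 4 libraries of a group came from separate experiments, so that p-values measure the spread between these libraries, which may in part be technical.

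Skeletal muscle contracts when myosin heads of the thick filament pull on actin of the thin filament, within repeating units called sarcomeres. Nerve signals reach the fibre through acetylcholine receptors, and calcium released by the ryanodine receptor then binds troponin C and frees the thin filament. Myogenic factors commit precursor cells to the muscle fate, and the embryonic and fetal isoforms of myosin, actin and troponin that are made first give way after birth to adult fast and slow forms. Cartilage cells are not known to build sarcomeres, while muscle and tendon lie against the cartilage rudiments of the embryonic limb.

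Library totals ranged from 4185241 to 25104240 estimated counts. The study left out 2 hip cap libraries as outliers, the control of replicate 4 and the 50 MPa library of replicate 2, and these were left out of the tests here as well. The sequencing run was read from the colours of a heat map in the paper and is uncertain. By this reading the hip cap controls that remained were of run 1 and all hip caps at 5 MPa of run 2. Of the libraries 6, 5 of hip caps and 1 of metatarsals, were unstranded, so that run and library type entered the fit. All 8 libraries at 5 MPa shared run and library type. Cartilage markers were compared between the tissues, both of which are labelled as cartilage, so that they do not check the labels. Of these, 11 of 11 were higher in hip caps at each pressure, against 14.1%, 18.8% and 10.1% of all genes at 0, 5 and 50 MPa. Their median log2 difference was 3.85 at 0 MPa and 3.02 at both 5 and 50 MPa. Their summed level was 1778 to 4614 CPM (counts scaled to a common library size by the TMM method) in metatarsals and 21496 to 77188 CPM in the hip caps used.

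Many muscle genes carry short binding motifs before their start. The motif CAGCTG, the E-box form bound by myogenic factors, read the same on both strands, was present within 250 bases before the start in 15 of the 32 members with a RefSeq promoter (46.9%), against 3979 of 27025 genes (14.7%). The MEF2 site, searched on both strands, was found in 4 of 32 members (12.5%), Myh1, Myh4, Myh8 and Ttn, against 923 genes (3.42%), and the CArG box, bound by serum response factor, in 4 of 32 (12.5%), Acta1, Actc1, Myh4 and Myl3, against 439 genes (1.62%). No stretch of letters can match more than 1 of these motifs. These are matches of letters and describe no binding. Neb, Tcap, Actn3, Chrnd, Myod1, Myf6, Tnni2 and Tnnt3 were not matched. The 120 bases before the start are shown, from RefSeq on build GRCm38.p6, for 5 members described below, chosen so that each kind of motif and most roles are seen, with the motif in capitals. Chrna1 (a receptor subunit, 2 E-boxes, as Chrng also has within 250 bases) lies on the minus strand at chr2:73580339-73580458. Mylpf (fast light chain, E-box) lies on the plus strand at chr7:127211488-127211607, and Tnni1 (slow troponin I, E-box) on the plus strand at chr1:135799301-135799420. Myh8 (perinatal myosin, MEF2 site) lies on the plus strand at chr11:67277004-67277123, and Actc1 (cardiac actin of embryonic muscle, CArG box) on the minus strand at chr2:114052876-114052995.
Chrna1: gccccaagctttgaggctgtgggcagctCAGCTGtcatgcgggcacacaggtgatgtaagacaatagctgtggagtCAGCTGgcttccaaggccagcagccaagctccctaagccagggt
Mylpf: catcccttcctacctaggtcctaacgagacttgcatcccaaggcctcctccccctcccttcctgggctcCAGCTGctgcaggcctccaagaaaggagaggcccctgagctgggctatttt
Tnni1: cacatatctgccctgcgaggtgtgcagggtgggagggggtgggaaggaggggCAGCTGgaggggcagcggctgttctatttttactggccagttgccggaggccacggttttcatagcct
Myh8: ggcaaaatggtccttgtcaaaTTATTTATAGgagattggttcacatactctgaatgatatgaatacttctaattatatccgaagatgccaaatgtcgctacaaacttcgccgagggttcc
Actc1: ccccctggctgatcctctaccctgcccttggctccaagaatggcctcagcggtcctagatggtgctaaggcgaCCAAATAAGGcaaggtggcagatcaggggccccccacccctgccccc

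Most members were more abundant in metatarsals than in hip caps. Without Tnni2 and Tnnt3 the other 38 summed to 621 to 3210 CPM in the 12 metatarsal libraries and to 27.7 to 77.2 CPM in the 10 hip cap libraries that were used. In controls the summed level of all 40 was 1937 ± 887 CPM (SD, n = 4) in metatarsals and 89.8 ± 15.2 CPM (n = 3) in hip caps. At 5 MPa it was 1952 ± 480 CPM (n = 4) against 68.7 ± 22.3 CPM (n = 4), and at 50 MPa 1223 ± 668 CPM (n = 4) against 88.0 ± 15.5 CPM (n = 3). In hip caps these sums hid opposite courses. The 38 had 30.6 ± 4.61, 45.2 ± 13.4 and 62.4 ± 13.2 CPM at 0, 5 and 50 MPa. Tnni2 and Tnnt3 together had 59.2 ± 15.4, 23.5 ± 12.5 and 25.5 ± 3.21 CPM. The left-out control of replicate 4 had 108 CPM of the 38, and these courses were not tested. Ttn alone had 798 to 1921 CPM in metatarsal controls. In the sum of all 40 no metatarsal library overlapped with a hip cap library that was used. Muscle fibres that make up a smaller share of the explant and less muscle RNA in each cell cannot be told apart in these bulk samples.

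**Figure D1:**
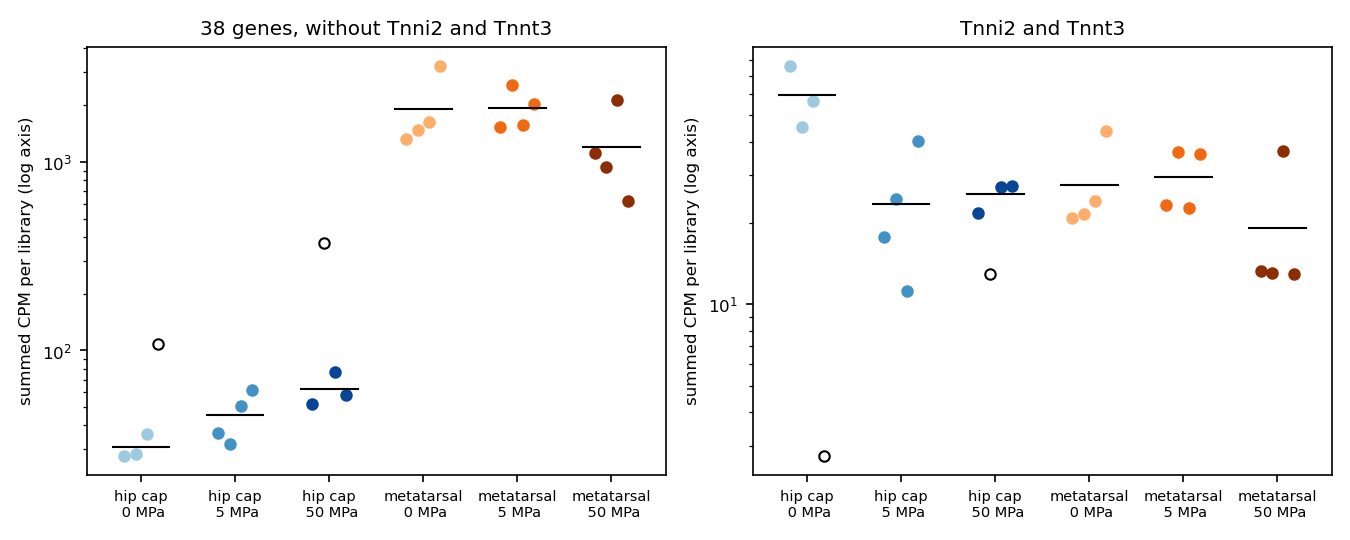
Summed level of 38 muscle genes (without Tnni2 and Tnnt3) in each of the 24 libraries, on a log10 axis in CPM, by group (left), and of Tnni2 and Tnnt3 (right); bars are means of the libraries used and open points the 2 libraries left out by the study. For the 38 genes all metatarsal libraries lie between 621 and 3210 CPM and all hip cap libraries used between 27.7 and 77.2 CPM, while the hip cap library at 50 MPa that was left out reaches 372 CPM.

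Within metatarsal controls the members were ranked by their level per kilobase of transcript, and embryonic, fast and slow isoforms were mixed among the highest. These levels rest on a single annotated transcript for each gene, and the study reports some degradation of its RNA. Comparisons between genes, here and in ratios, are thus approximate. Actc1, the cardiac alpha-actin that embryonic skeletal muscle also makes, was first with 61.9 CPM per kb, followed by the fast light chain Mylpf (41.9), skeletal actin Acta1 (30.5), the slow and cardiac troponin C Tnnc1 (23.4), embryonic myosin Myh3 (22) and fast troponin C Tnnc2 (21.8). Myog stood at 9.80 and Myod1 at 5.33 CPM per kb, and the satellite cell factor Pax7 at 0.194. The adult fast myosins were at the other end, with 0.0955 for Myh1, 0.0428 for Myh4 and 0.00537 CPM per kb for Myh2. The neighbours from Myl1 (19.6) through Myl4 and Tnnt2 (19.1 each) to Tnnt1 (18.2) differed by far less than their spread between libraries. In hip cap controls the order was another one, with Tnni2 at 61.6 CPM per kb, Tnnt3 at 11.1, Tnnc1 at 4.06, Mylpf and the slow light chain Myl3 at 3.13 each and Myl4, an embryonic and atrial light chain, at 1.27, and the remaining members below 1 CPM per kb.

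**Figure D2:**
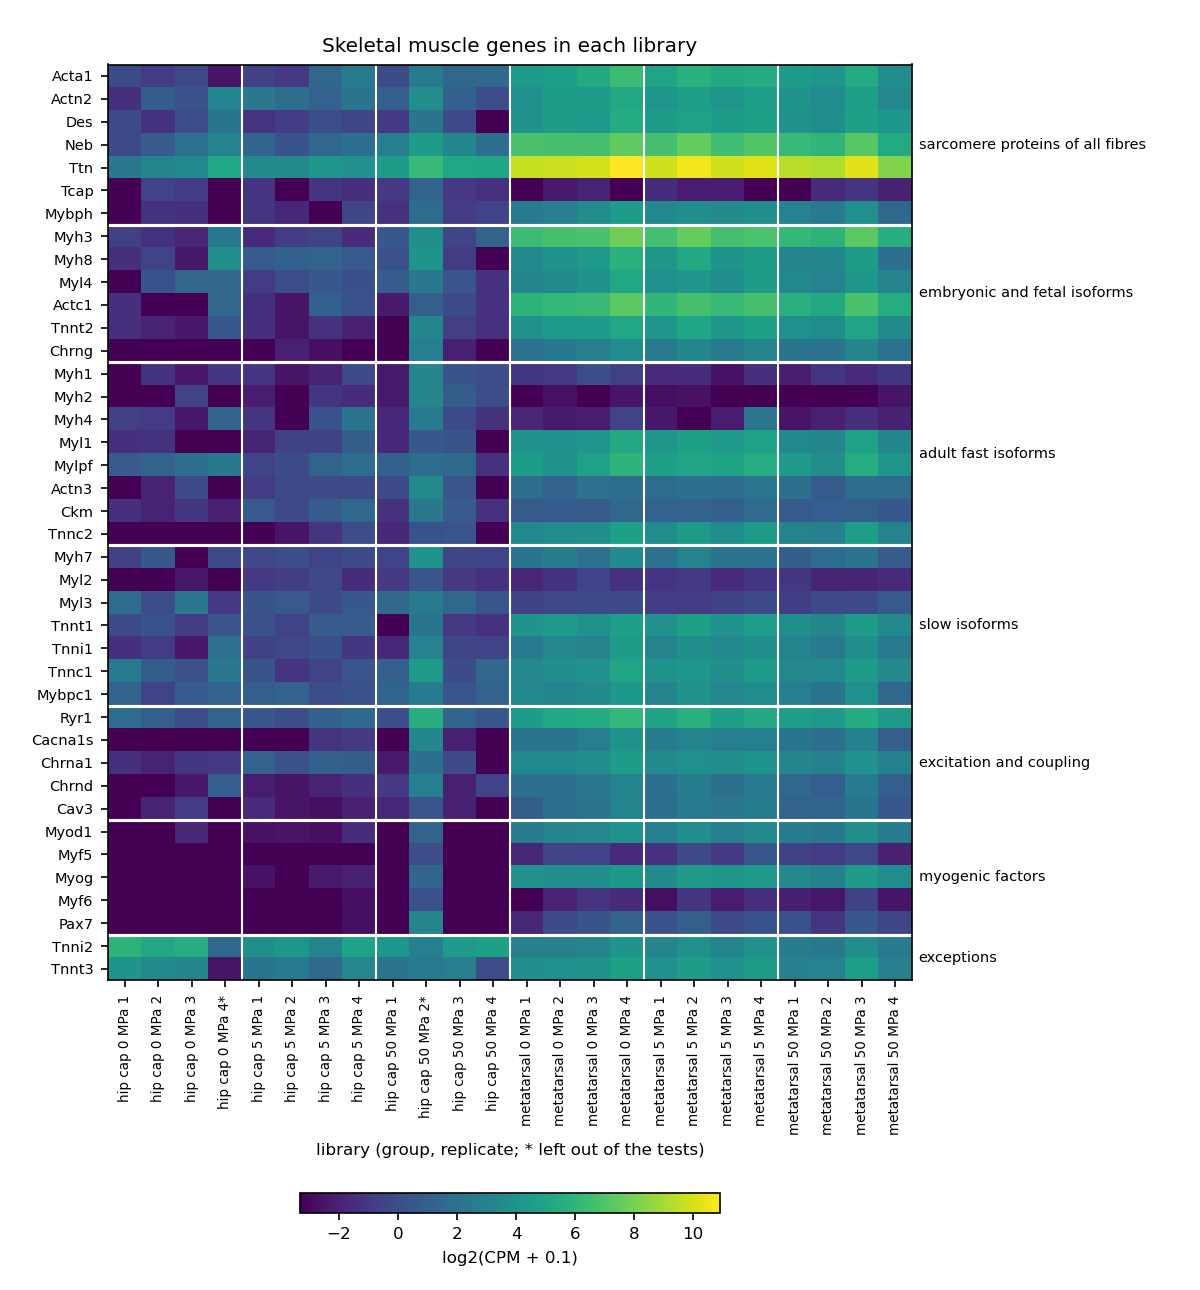
Level of each of the 40 members (rows, grouped by role) in each of the 24 libraries (columns, ordered by group), as log2(CPM + 0.1) on a colour scale; an asterisk marks the libraries left out by the study. Most members are bright in the 12 metatarsal libraries and dark in hip caps, with Ttn brightest at up to 1921 CPM. Some, such as Tcap, Myh2, Myl2 and Myf6, are dark in metatarsals as well. In the lowest rows, Tnni2 is brighter in the hip cap controls used than in metatarsal controls, and Tnnt3 overlaps between them.

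In controls, 30 of the 35 members tested were lower in hip caps than in metatarsals, where 15.9% of all genes tested passed the threshold in that direction, and 2 were higher, where 14.1% of all genes did (edgeR's quasi-likelihood test, adjusted p at most 0.05 over 21283 genes). The median log2 difference (hip cap over metatarsal) of the members tested was -4.78, or -4.37 with 6 members that had no count in hip cap controls set at their bound, against -0.08 over all genes. DESeq2 also gave 30 lower and 2 higher. The metatarsal control of replicate 1 was the only metatarsal control of run 1, and without it 21 members were called lower and 0 higher. For 33 of the 35 members tested the libraries of the hip cap controls used and the metatarsal controls did not overlap, as for 42.4% of all genes tested.

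**Figure D3:**
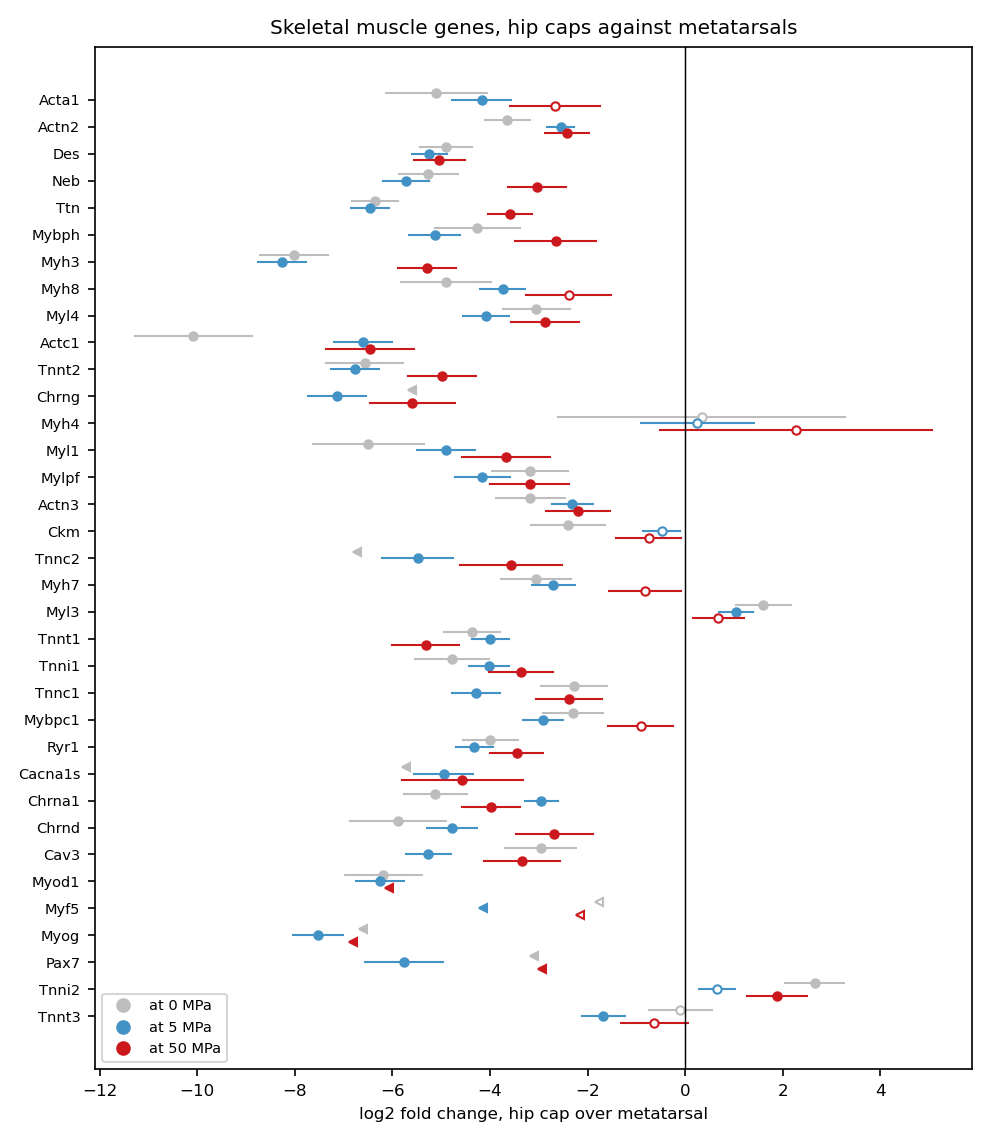
Log2 fold change of hip caps over metatarsals for the 35 members tested, with 1 SE as a bar, at 0 MPa (grey), 5 MPa (blue) and 50 MPa (red); filled symbols passed an adjusted p of 0.05, and triangles are bounds for members with no count in the hip cap group, set at 3 counts over the group. Most points lie left of 0, down to -10.08 for Actc1 at 0 MPa. Tnni2, Myl3 and Myh4 lie right of 0 at all 3 pressures, Myh4 at up to 2.27 (50 MPa) without passing at any. Scaled by library sizes alone, Tnni2 at 5 MPa (-0.00), Myl3 at 50 MPa (-0.13) and Myh4 at 0 and 5 MPa (-0.53 and -0.57) do not.

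All 6 tested sarcomere proteins common to all fibres were lower in hip cap controls, with a median log2 difference of -5.0. Titin (Ttn), the giant protein that spans from Z disc to M line, had 798, 873, 972 and 1921 CPM in the metatarsal controls and 4.89, 8.59 and 9.91 CPM in the hip cap controls. Its long transcript makes its CPM high, and per kilobase it stood at 10.7 in metatarsal controls. All 4 metatarsal values lay far above the hip caps (log2 difference -6.35, SE 0.47, adjusted p = 1.34e-08). Nebulin (Neb), which runs along the thin filament, had 104 to 174 CPM against 0.815, 1.59 and 3.81 CPM (log2 difference -5.26, SE 0.61, adjusted p = 7.63e-06). Acta1, the alpha-actinin Actn2 of the Z disc, the intermediate filament protein desmin (Des) and the myosin-binding protein Mybph differed by -3.65 to -5.10 on the log2 scale. Mybph shares 47.07% of its 31-base words with Adora1, which overlaps it on the opposite strand, and its value is uncertain in unstranded libraries. Tcap, a cap protein of titin at the Z disc, was not tested and had 0 to 0.636 CPM in all controls used.

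The embryonic and fetal isoforms showed a median log2 difference of -7.30, or -6.08 with the 1 member at its bound, and all 6 were lower in hip cap controls. Embryonic myosin Myh3 had 85.9, 107, 112 and 226 CPM in metatarsal controls and 0.544, 0.318 and 0.191 CPM in hip cap controls. The groups lay far apart (log2 difference -8.02, SE 0.70, adjusted p = 2.3e-07). Actc1 had 58.8, 71.5, 77.9 and 157 CPM in metatarsals, against 0.272, 0 and 0 CPM in hip caps, where the single count gave a ratio of 1895 with an exact 95% interval of 340 to 74868 (adjusted p = 1.29e-05). Intervals of this kind cover counting error only. Tnnt2, the cardiac troponin T that embryonic skeletal muscle also uses, was lower by a ratio of 161 (interval 54.9 to 780). Chrng, the fetal gamma subunit of the acetylcholine receptor, had no count in hip cap controls and 3.83 to 11.8 CPM in metatarsals, at least 48.6-fold lower. Perinatal myosin Myh8 (log2 difference -4.90, SE 0.92) and Myl4 (-3.05, SE 0.69) were lower as well.

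Of the 6 tested adult fast isoforms, 5 were lower in hip cap controls and Myh4 did not pass the test, with a median log2 difference of -3.18. Mylpf, the fast regulatory light chain, had 22.4, 15.9, 28.4 and 61.7 CPM in metatarsal controls and 1.63, 2.23 and 3.33 CPM in hip caps (log2 difference -3.18, SE 0.78, adjusted p = 0.00613), and without the metatarsal control of replicate 1 it was no longer called (adjusted p = 0.173). Tnnc2, fast troponin C, had 9.76, 12.0, 13.4 and 25.9 CPM in metatarsals and no count in any hip cap control, at least 106-fold lower (adjusted p = 0.00161). Tnnc2 shares 67.61% of its 31-base words with Ube2c on the opposite strand, so that its counts are uncertain in unstranded libraries. Myl1 was lower by a ratio of 143 (interval 48.9 to 696), and Actn3, the alpha-actinin of fast fibres, by a log2 difference of -3.17 (SE 0.70). Ckm, muscle creatine kinase, differed least among those called, with 1.53, 1.66, 1.60 and 2.55 CPM against 0.272, 0.159 and 0.381 CPM (-2.40, SE 0.76, adjusted p = 0.0216). Its call was lost without any one of 4 libraries, the hip cap controls of replicates 2 and 3, the metatarsal control of replicate 1 and the 50 MPa metatarsal of replicate 4 (adjusted p = 0.0651, 0.076, 0.269 and 0.0752). Myh4, the myosin of the fastest fibres, had 0.107 to 0.618 CPM in metatarsal controls and 0.0953 to 0.544 CPM in hip cap controls, which overlapped.

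Among the 6 tested slow isoforms 5 were lower and 1, Myl3, was higher in hip cap controls (median log2 difference -2.68). Slow troponin T, Tnnt1, had 16.3, 19.8, 14.7 and 26.4 CPM in metatarsals and 0.815, 1.11 and 0.476 CPM in hip caps (-4.37, SE 0.58, adjusted p = 1.16e-05). Slow troponin I, Tnni1, had 5.93, 9.36, 8.06 and 23.1 CPM against 0.272, 0.477 and 0.0953 CPM (-4.78, SE 0.75, adjusted p = 6.33e-05). Both genes were thus clearly separated between the tissues, while slow myosin Myh7 (-3.05), Tnnc1 (-2.28) and the slow myosin-binding protein Mybpc1 (-2.30) differed less. Myl3, the light chain of slow and ventricular muscle, ran the other way, with 0.574, 0.749, 0.858 and 0.849 CPM in metatarsals and 2.99, 0.955 and 4.86 CPM in hip caps. The lowest hip cap value stood just above the highest metatarsal value (log2 difference 1.60, SE 0.56, adjusted p = 0.0366), and Tnni2 remained the single member called higher without any one of 6 libraries, the hip cap controls of replicates 1 and 3, the metatarsal control of replicate 2 and the 50 MPa metatarsals of replicates 2, 3 and 4. The call of Myl3 was also lost without the metatarsal control of replicate 1 (1.55, adjusted p = 0.222), with library sizes alone (0.84, adjusted p = 0.381), without a filter on counts (1.64, adjusted p = 0.109), with the replicate block (1.69, adjusted p = 0.0615) and with all 24 libraries (0.68, adjusted p = 0.507).

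All 5 genes of excitation and coupling were lower in hip cap controls, with a median log2 difference of -5.12. Ryr1, the calcium release channel of the sarcoplasmic reticulum, had 22.8, 35.6, 42.5 and 68.6 CPM in metatarsals and 2.99, 1.91 and 0.953 CPM in hip caps (-3.99, SE 0.56, adjusted p = 3.39e-05). Cacna1s, the voltage sensor that opens it, had 4.40, 4.44, 6.58 and 15.3 CPM in metatarsals and no count in hip cap controls, at least 52.6-fold lower (adjusted p = 0.000677). The receptor subunit Chrna1 had 9.79 to 22.3 CPM against 0.159 to 0.381 CPM (-5.12, SE 0.65, adjusted p = 5.09e-06), and Chrnd was lower by a ratio of 103 (interval 18.4 to 4088). Cav3, muscle caveolin, had 1.72, 3.58, 4.29 and 8.41 CPM against 0, 0.159 and 0.476 CPM (-2.96, SE 0.73, adjusted p = 0.00411), with the call lost without the metatarsal control of replicate 1 (adjusted p = 0.128).

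The myogenic factors were nearly silent in hip caps. Myog, which drives the differentiation of myoblasts, had 14.5, 12.6, 12.4 and 19.1 CPM in metatarsal controls, 10.5 to 20.6 CPM at 5 MPa and 7.61 to 20.9 CPM at 50 MPa. In hip caps Myog had no count in any of the 3 controls or the 3 libraries used at 50 MPa, and 1, 0, 2 and 3 counts at 5 MPa. It was at least 97.2-fold lower at 0 MPa (adjusted p = 2.12e-06) and at least 112-fold lower at 50 MPa, and the fitted log2 difference at 5 MPa was -7.53 (SE 0.51, adjusted p = 6.79e-09). Myod1, a determination factor, had 6.32, 8.40, 9.61 and 15.4 CPM in metatarsal controls, with 33 to 199 counts a library, while a total of 2 counts in the hip cap controls fell in replicate 3. The ratio was 105 (interval 28.9 to 868, adjusted p = 8.57e-06) at 0 MPa, and Myod1 was at least 66.7-fold lower at 50 MPa. Myf5, the determination factor that is made earliest, was low also in metatarsal controls, with 0.191, 0.642, 0.629 and 0.232 CPM, and had no count in hip caps used at any pressure. It was at least 3.39-fold lower at 0 MPa, which did not pass the test (adjusted p = 0.172), and at least 17.7-fold lower at 5 MPa, which did (adjusted p = 0.000185). Pax7 had 0.191, 0.909, 1.2 and 2.24 CPM in metatarsal controls and no count in hip cap controls, at least 8.53-fold lower (adjusted p = 0.0209), and its call was lost without any one of the hip cap control of replicate 3, the metatarsal control of replicate 1 and the 50 MPa metatarsal of replicate 4 (adjusted p = 0.336, 0.0688 and 0.333), with all 24 libraries (adjusted p = 0.0709) and with the replicate block (adjusted p = 0.0749). Myf6, a factor of late differentiation, was not tested and had 0, 0.160, 0.343 and 0.232 CPM in metatarsal controls and no count in hip cap controls.

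The shares of embryonic, fetal, slow and adult fast myosin heavy chains were compared. Of the counts of 6 sarcomeric chains, Myh3 and Myh8 together took 95.5% ± 0.779 (SD, n = 4) in metatarsal controls, slow Myh7 3.94% ± 0.891 and the adult fast chains Myh1, Myh2 and Myh4 0.559% ± 0.166. The embryonic and fetal share was 95.8% ± 1.23 at 5 MPa (94.0 to 96.5%) and 96.5% ± 1.31 at 50 MPa (94.9 to 97.7%). Both ranges overlapped with that of the controls (94.8 to 96.4%). In hip cap controls the same chains took 32.6% ± 9.24, 24.5% ± 22.8 and 42.9% ± 27.9 (n = 3), over 7 to 20 counts a library. The adult fast share in hip caps was 31.8% ± 27.4 at 5 MPa and 40.9% ± 27.4 at 50 MPa, with a range at 5 MPa of 1.96 to 68.1%. The chains share sequence, with 30.4 to 44.92% of the 31-base words of Myh1, Myh2, Myh4, Myh7 and Myh8 found in other genes, so that counts may be split between them, and the few counts of hip caps allow no closer statement. Myh2 was counted in 7 of the 10 hip cap libraries used, with 1 to 25 counts in those, and its metatarsal libraries had 0 or 1 count.

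At 5 MPa, where both tissues were of 1 run and library type, 31 of 35 members were lower in hip caps (19.1% of all genes) and 1, Myl3, was higher (18.8% of all genes), with a median log2 difference of -4.32 against -0.08 over all genes. All tested members of the sarcomere (6), embryonic (6), excitation (5) and myogenic (4) groups were lower, with medians of -5.18, -6.68, -4.78 and -6.35. Ttn had 10.3 to 17.5 CPM against 943 to 1554 CPM (-6.45, SE 0.39), and Myh3 0.238 to 0.670 CPM against 102 to 190 CPM (-8.27, SE 0.49). Ckm had 0.773 to 2.73 CPM against 1.94 to 3.06 CPM and did not pass the test (-0.48, SE 0.38, adjusted p = 0.339), and the groups overlapped. DESeq2 gave the same counts, 31 lower and 1 higher, and leaving out each library in turn left 31 lower. Myl3 had 0.876 to 1.48 CPM against 0.487 to 0.808 CPM (1.04, SE 0.35, adjusted p = 0.0236). This call was lost without the 5 MPa metatarsal of replicate 1 (1.03, adjusted p = 0.0512), with library sizes alone (0.43, adjusted p = 0.459), without a filter on counts (1.09, adjusted p = 0.0631), with all 24 libraries (1.04, adjusted p = 0.17) and without batch terms (1.04, adjusted p = 0.0561).

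At 50 MPa, 25 of 35 members were lower in hip caps (9.58% of all genes) and 1, Tnni2, was higher (10.1% of all genes), with a median log2 difference of -3.34, or -3.04 with 4 members at their bound, against -0.01 over all genes. The lower members comprised 5 of 6 of the sarcomere group, 5 of 6 embryonic, 4 of 6 fast, 3 of 6 slow, 5 of 5 excitation genes and 3 of 4 myogenic factors. Ttn had 22.7, 35.1 and 34.7 CPM against 663, 586, 1240 and 291 CPM (-3.59, SE 0.46, adjusted p = 1.09e-05). Acta1 (-2.66, SE 0.92, adjusted p = 0.0554), Myh8 (-2.39, SE 0.88, adjusted p = 0.0676), Myh7 (-0.83) and Mybpc1 (-0.91) did not pass the test. Myh4 had the highest log2 difference of the members (2.27) and did not pass either. It had 0.211, 0.832 and 0.309 CPM in hip caps against 0.0661, 0.134, 0.3 and 0.152 CPM, with overlap. All hip caps used at 50 MPa were unstranded and of run 1, and the metatarsal of replicate 4 was the single metatarsal library at 50 MPa of that kind. Without it 4 members were called lower (2.31% of all genes), with a median log2 difference of -3.80. With the left-out libraries added 12 were (4.26% of all genes), with a median of -1.40. With them Tnni1 (-0.77), Ryr1 (-0.49), Actn2 (-0.76) and Cav3 (-2.72) were among the members no longer called.

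Tnni2, fast troponin I, was the main exception, and it had been set apart with earlier results of these data known. Hip cap controls had 59.5, 35 and 47.3 CPM and metatarsal controls 7.27, 7.33, 8.41 and 16.1 CPM. The groups did not overlap and hip caps were higher (log2 difference 2.65, SE 0.60, adjusted p = 0.00298). This call was lost without the metatarsal control of replicate 1 (2.61, adjusted p = 0.0853) and with all 24 libraries (1.32, adjusted p = 0.326), where the left-out control of replicate 4 had 2.69 CPM. At 5 MPa the hip caps had 13.3, 18.6, 8.30 and 30.8 CPM against 8.67, 14.1, 8.54 and 14.1 CPM, with overlap (0.65, SE 0.37, adjusted p = 0.189; -0.00 when scaled by library sizes alone), and at 50 MPa 17.5, 20.6 and 26.6 CPM against 6.15, 5.12, 12.6 and 5.87 CPM (1.88, SE 0.62, adjusted p = 0.0426). The call at 50 MPa was lost with library sizes alone (0.91, adjusted p = 0.264), without a filter on counts (1.90, adjusted p = 0.106), with all 24 libraries (0.79, adjusted p = 0.679) and without any one of 12 libraries, with log2 differences of 1.72 to 2.01: the hip cap controls of replicates 1 and 3, the 5 MPa hip cap of replicate 2, the 50 MPa hip caps of replicates 1, 3 and 4, the metatarsal control of replicate 1, the 5 MPa metatarsals of replicates 2 and 4 and the 50 MPa metatarsals of replicates 1, 2 and 4. At 5 MPa Tnni2 was called higher without the hip cap of replicate 3 (0.96, adjusted p = 0.0451).

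Tnnt3, fast troponin T, was the other member set apart, and its levels in the control groups overlapped. Hip cap controls had 16.3, 10.3 and 9.15 CPM and metatarsal controls 13.6, 14.1, 15.8 and 27.6 CPM (log2 difference -0.10, SE 0.64, adjusted p = 0.926), so that a difference was not detectable. At 5 MPa the hip caps were lower, with 4.47, 5.91, 2.94 and 9.52 CPM against 14.6, 22.6, 14.1 and 21.8 CPM (-1.68, SE 0.44, adjusted p = 0.00658), a call that was lost with all 24 libraries (-1.68, adjusted p = 0.104). At 50 MPa they had 4.32, 6.66 and 0.928 CPM against 7.14, 7.97, 24.4 and 7.16 CPM (-0.63, SE 0.69, adjusted p = 0.603). Both genes were in the deposited table under unique symbols, and neither shared a 31-base word with another gene. In the GENCODE annotation they are close neighbours on chromosome 7, with Lsp1 between them.

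The fast troponin complex needs its 3 subunits in equal number, and their transcripts kept close to fixed ratios in metatarsals. Tnni2 per Tnnc2, both per kilobase, was 0.460 to 0.679 in the 12 metatarsal libraries, and Tnni2 per Tnnt3 was 0.723 to 1.21. In hip caps Tnnc2 was at 0 counts in 6 of 12 libraries, among them all 4 controls, which had 38 to 497 counts of Tnni2. Where Tnnc2 was counted in the hip cap libraries used, Tnni2 per Tnnc2 was 15.0 to 242, and Tnni2 per Tnnt3 was 3.97 to 7.27 in 9 of the 10 libraries used and 40.3 in the 50 MPa hip cap of replicate 4, with 3 counts of Tnnt3. The ratios of the tissues did not overlap. Tnni2 moved with the cartilage markers among hip caps: the 3 libraries with their lowest summed level, the left-out control (9289 CPM), the left-out library at 50 MPa (13809 CPM) and the 5 MPa hip cap of replicate 3 (21496 CPM), had the lowest Tnni2 (2.69, 7.08 and 8.30 CPM), while the controls used stood at 47103 to 77188 CPM of cartilage markers. The part of the cartilage share in the level of Tnni2 was not tested.

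**Figure D4:**
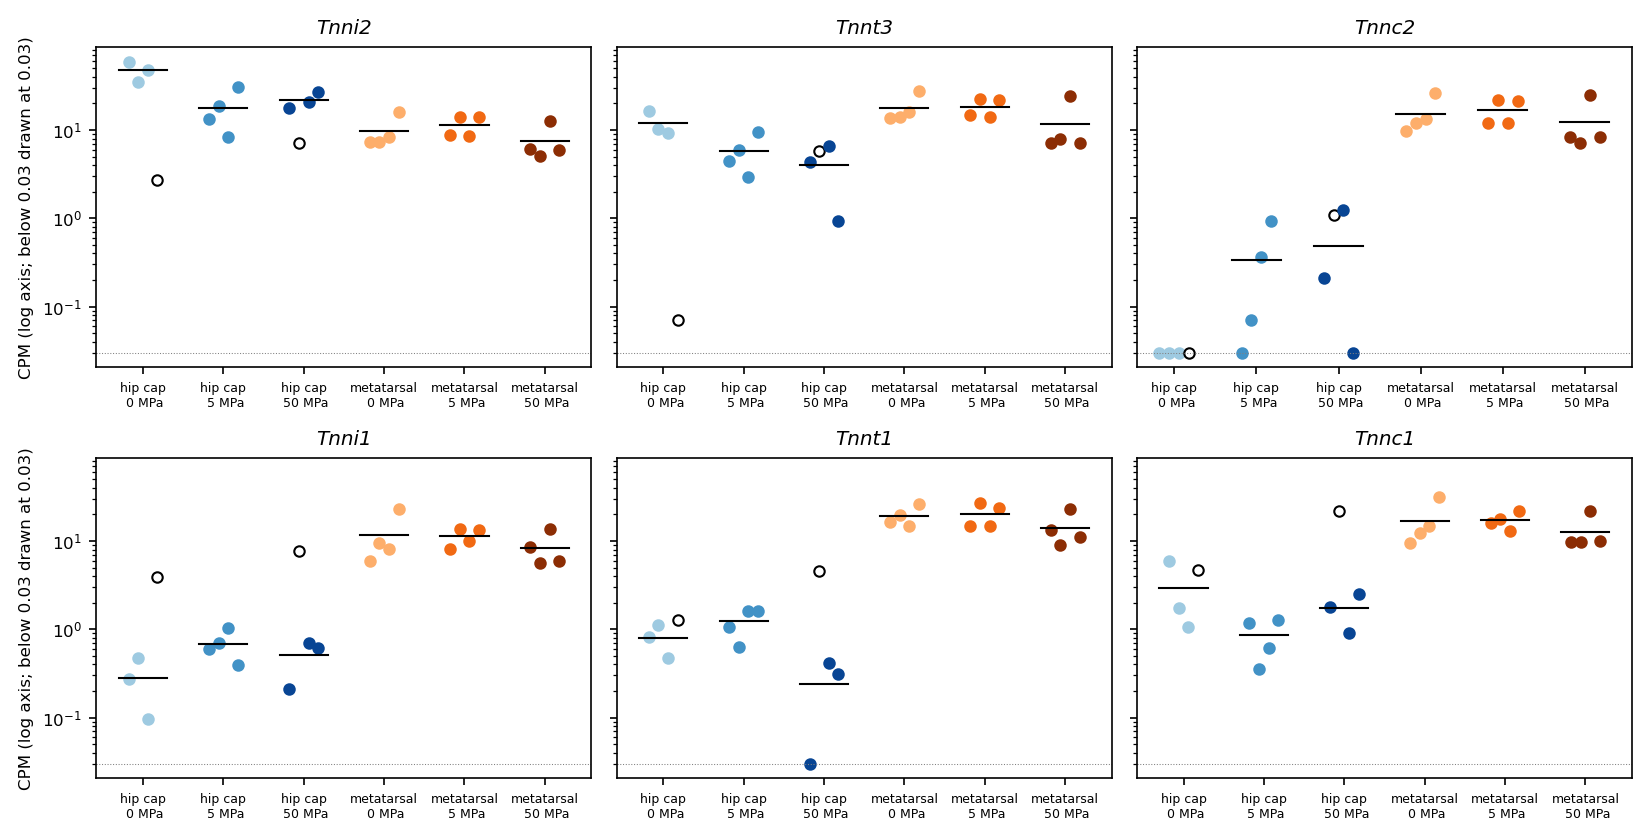
Level of the fast troponins Tnni2, Tnnt3 and Tnnc2 (upper row) and the slow troponins Tnni1, Tnnt1 and Tnnc1 (lower row) in each library, by group, in CPM on a log axis. Bars are means of the libraries used, points on the dotted line lie below 0.03 CPM, and open points are the 2 libraries left out by the study. Tnni2 lies at 8.30 to 59.5 CPM in the hip caps used and at 5.12 to 16.1 CPM in metatarsals, Tnnt3 overlaps in controls, and Tnnc2 is at most 1.25 CPM in the hip caps used and at least 7.12 CPM in metatarsals.

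Few members passed the test for pressure in hip caps. The comparisons of 5 and of 50 MPa with 0 MPa share their control libraries. At 5 MPa 0 of 35 members passed the test in either direction (0.0094% of all genes in each direction) with edgeR, and 0 with DESeq2, and 6 members had an unadjusted p under 0.05, as did 14.8% of all genes. The median log2 change was 0.04 against 0.01 over all genes. Tnni2 was at 13.3, 18.6, 8.30 and 30.8 CPM, below all controls used (35 to 59.5 CPM) but above the left-out control (2.69 CPM), and its change of -1.89 (SE 0.65) had an adjusted p of 0.209. Ckm was at 0.773 to 2.73 CPM, above all controls used (0.159 to 0.381 CPM), with a change of 2.16 (SE 0.81, adjusted p = 0.231), and Chrna1 was at 1.05 to 2.14 CPM, also above all controls used (2.02, SE 0.77, adjusted p = 0.239). The controls used were of run 1 and the 5 MPa libraries of run 2, so that in hip caps run and pressure cannot be told apart without the metatarsals. Without batch terms 3 members were called higher (4.44% of all genes) and 1 lower (5.09%), and with library type as the only batch term 2 were called higher (2.69%).

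All hip caps used at 50 MPa were unstranded, and of the controls used only that of replicate 3 was. Pressure and library type can thus hardly be told apart in hip caps. At 50 MPa 1 of 35 members rose in hip caps (3.32% of all genes) and 0 fell (1.86% of all genes). That member was Ttn, with 22.7, 35.1 and 34.7 CPM against 4.89, 8.59 and 9.91 CPM in the controls used. All 3 values lay above these, and below the left-out control of replicate 4 with 35.8 CPM (log2 change 1.95, SE 0.48, adjusted p = 0.0283), and DESeq2 called it as well (1.96, adjusted p = 0.0012). The call was lost without the hip cap control of replicate 3 (3.02, adjusted p = 0.202), the 50 MPa hip cap of replicate 3 (1.78, adjusted p = 0.0811), the metatarsal control of replicate 1 (1.59, adjusted p = 0.111) or the 50 MPa metatarsal of replicate 4 (1.58, adjusted p = 0.111), and with all 24 libraries (2.17, adjusted p = 0.158), hip caps alone (1.66, adjusted p = 0.413), library sizes alone (2.17, adjusted p = 0.0838) or no filter on counts (1.96, adjusted p = 0.0799). Neb had 7.07, 9.22 and 3.40 CPM against 0.815, 1.59 and 3.81 CPM, with overlap (1.51, SE 0.66, adjusted p = 0.183). Across the members tested the median change was 0.64 against 0.02 over all genes, and it was 0.06 without the 50 MPa hip cap of replicate 3. Tnni2 and Tnnt3 had changes of -1.17 and -1.04 and did not pass the test. No count of Myod1, Myog, Myf5, Myf6 or Pax7 was found in the 50 MPa hip caps used.

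In metatarsals 0 of 35 members passed the test at 5 MPa and 0 at 50 MPa (0% of all genes in each comparison and direction, with 689 and 828 genes at an unadjusted p under 0.05) with edgeR, and 0 with DESeq2 in both. At 5 MPa the changes of 27 members were below 0, with a median of -0.16, and no member had an unadjusted p under 0.05. The smallest p belonged to Myh4, with 0.0898, 0, 0.118 and 4.68 CPM against 0.107 to 0.618 CPM in controls (log2 change 2.36, SE 1.5, adjusted p = 1). Its value rested on replicate 4, without which the change was -1.67. Actn2, the next, had 17.6, 25.2, 18.3 and 25 CPM against 14.7, 22.7, 22.4 and 35.4 CPM (-0.31, SE 0.27, adjusted p = 1). At 50 MPa 34 of 35 changes were below 0, with a median of -0.54 against 0 over all genes, and 7 members had an unadjusted p under 0.05, as did 3.89% of all genes. Ttn was at 663, 586, 1240 and 291 CPM against 798 to 1921 CPM (-0.81, SE 0.32, adjusted p = 1), Cav3 at 2.25, 2.36, 4.45 and 1.37 CPM against 1.72 to 8.41 CPM (-0.93, SE 0.38, adjusted p = 1) and Myh8 at 3.58 to 21.6 CPM against 9.95 to 54.3 CPM (-1.13, SE 0.45, adjusted p = 1). In all 3 the groups overlapped. The members were high or low together from library to library: of the 12 metatarsals, the control of replicate 4 had the highest level of 28 of 40 members, and the 50 MPa libraries of replicates 4 and 2 had the lowest level of 16 and 14.

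**Figure D5:**
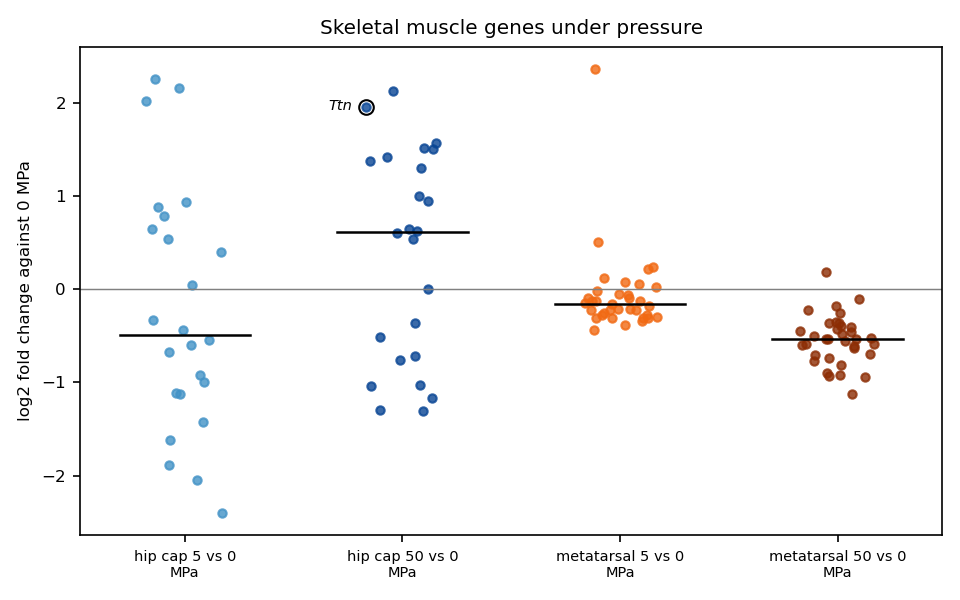
Log2 fold change of each member against 0 MPa in hip caps and metatarsals at 5 and 50 MPa, for members with more than 3 summed counts in both groups (24, 24, 35 and 35 genes), with a bar at the median of those shown. The medians are -0.49, 0.61, -0.16 and -0.54, and Ttn in hip caps at 50 MPa, circled, is the single point that passed an adjusted p of 0.05.

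The response of the tissues was compared directly by the interaction of tissue and pressure. In the hip caps used, pressure went together with run at 5 MPa and largely with library type at 50 MPa. At 5 MPa 0 of 35 members passed (0.0094% of all genes in each direction) with edgeR and 0 with DESeq2, and 5 had an unadjusted p under 0.05, as did 11.2% of all genes. Tnni2 had the smallest p, with a log2 difference between the changes of -2.0 (SE 0.69, adjusted p = 0.335), followed by Chrna1 with 2.17 (SE 0.80, adjusted p = 0.346). At 50 MPa 1 member passed in the direction of a larger change in hip caps (0.0799% of all genes) and 0 in the other (0.0517%). This was Ttn, whose changes of 1.95 in hip caps and -0.81 in metatarsals differed by 2.76 (SE 0.53, adjusted p = 0.044). DESeq2 called 3 members. The call of Ttn was lost with library sizes alone, no filter on counts, all 24 libraries, no batch terms or library type as the only batch term (differences of 2.66 to 3.03, adjusted p = 0.0566 to 0.306). It was also lost without any one of 14 of the 22 libraries, with differences of 2.19 to 3.62: the hip cap control of replicate 3, the 5 MPa hip caps of replicates 1, 2 and 4, the 50 MPa hip cap of replicate 3, the metatarsal controls of replicates 1 and 4, all 4 metatarsals at 5 MPa and the 50 MPa metatarsals of replicates 1, 2 and 4. Neb followed, with 2.22 (SE 0.71, adjusted p = 0.122).

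The 2 hip cap libraries left out by the study differed from the others in these genes. The 50 MPa library of replicate 2 had 37 of 40 members above the highest hip cap control used, 32 of them among the 35 tested, as were 44.1% of all genes tested, and a summed level of 384 CPM, including 46.7 CPM of Ryr1, 77.4 CPM of Ttn, 8.96 CPM of Pax7 and 6 to 57 counts of each myogenic factor. Its heart muscle markers summed to 36.0 CPM, against 0.0707 to 2.15 CPM in the other hip caps and 2.38 to 5.56 CPM in metatarsals. The control of replicate 4 had 16 of 40 members above those controls, 15 of them among the 35 tested, as were 32.8% of all genes tested, with 35.8 CPM of Ttn, 13.4 CPM of Myh8 and no count of any myogenic factor. In this library the endothelial markers summed to 217 CPM (48.2 to 100 in the controls used) and the tendon and ligament markers to 2219 CPM (828 to 1015). Their part in these levels was not tested.

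Of the further muscle genes outside the 40 most that passed the test were lower in hip cap controls (15.9% of all genes lower, 14.1% higher). Of 19 tested genes of muscle differentiation and fusion 12 were lower and 1 higher in hip cap controls (median log2 difference -2.61), of 20 further genes of the sarcomere and Z disc 9 were lower and 3 higher (-1.90), and of 20 genes of calcium handling and metabolism 10 were lower and 1 higher (-2.51). Vgll2, a cofactor of muscle gene expression, and Mymx, which fuses myoblasts, had no count in hip cap controls and were at least 29.7-fold and at least 21.5-fold lower. Xirp1 and Myot, proteins of the Z disc and its attachments, were at least 9.91-fold and at least 8.53-fold lower, and Casq2, a calcium store of the sarcoplasmic reticulum, was lower by a ratio of 81.1 (interval 22.3 to 672). Sln, a regulator of the calcium pump, was at least 3.64-fold lower and did not pass (adjusted p = 0.0516). The highest log2 differences belonged to Xirp2 (7.6, SE 2.07, adjusted p = 0.00869), with 3.93 CPM in hip cap and 0.129 CPM in metatarsal controls, to Myom1, a protein of the M line (1.65, SE 0.25, adjusted p = 4.44e-05), with 34.3 against 14.6 CPM, to Hspb7 (1.67, SE 0.58, adjusted p = 0.0334), with 2.95 against 1.51 CPM, and to the transcription factor Mef2c (1.59, SE 0.26, adjusted p = 9.27e-05), with 212 against 74.4 CPM, which cartilage cells also make during hypertrophy. Itga7 (0.75, adjusted p = 0.0704) and Jph2 (0.48, adjusted p = 0.514) did not pass. At 5 MPa the counts were 14, 14 and 16 lower (19.1% of all genes) and 2, 4 and 1 higher (18.8%). At 50 MPa they were 10, 7 and 7 lower (9.58% of all genes) and 3, 3 and 0 higher (10.1%).

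Markers of other cell types were set beside these differences. The 8 tendon and ligament markers summed to 242 to 372 CPM in metatarsals and 787 to 2330 CPM in the hip caps used, but the markers went both ways. Of the 8, 4 were lower and 2 higher in hip cap controls (median log2 difference -0.80), and 5 lower and 3 higher at 5 MPa (-1.08). Fmod (2.88), Thbs4 (2.89) and Tnc (1.75, not past the threshold) carried the sum, while Scx, Tnmd, Egr1 and Kera were lower between controls. Kera was at 17.7 to 73.0 CPM in metatarsals and 0 to 0.347 CPM in the hip caps used. The 8 smooth muscle and pericyte markers summed to 136 to 218 CPM in metatarsals and 168 to 340 CPM in the hip caps used, which overlapped, and so did the 6 endothelial markers, with 73.5 to 119 CPM and 48.2 to 246 CPM. The 7 nerve and Schwann cell markers summed to 22.6 to 35.4 CPM in metatarsals and 57.1 to 197 CPM in the hip caps used, but of the 6 tested 2 were higher, S100b (log2 difference 3.0) and Mbp (3.8), and 2 lower, Erbb3 (-3.01) and Foxd3, between controls, with a median of -0.47. The 7 heart muscle markers summed to 2.38 to 5.56 CPM in metatarsals and 0.618 to 2.15 CPM in the hip caps used, a small part of the level of the 40 genes. The sums were not tested, and their part in the differences of the members was not tested.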

How the data were processed

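Total RNA of cartilage explants, depleted of ribosomal RNA, gave 24 libraries, 4 in every group (hip caps and metatarsals at 0, 5 and 50 MPa; the labels write mPa). The authors trimmed reads with Trim Galore 0.6.5, assigned them to transcripts with kallisto, summed them per gene with tximport and deposited estimated counts without normalization (build GRCm39 in the processing notes, annotation release not given in the sources used here). Of 52178 genes, 48845 were named from GENCODE on GRCm38, which also gave transcript lengths and shared 31-base words, and 3333 had no name.

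Rounded counts entered edgeR 4.0.16 in R 4.3.3: filterByExpr over the 6 groups (21283 genes kept), TMM scaling, robust quasi-likelihood fits with terms for group, run and library type over the 22 libraries the study used, two-sided tests and Benjamini-Hochberg adjustment per comparison, with a threshold of 0.05. The run was read from the colour strip of a heat map in the paper, which gave 9 libraries in run 1 and 15 in run 2. The study's methods split the libraries between its sequencing kits in other numbers, so that the runs used here are uncertain. CPM are TMM-scaled. A fold against a group at 0 counts is a bound at 3 counts over the group, and ratios with 1 to 3 counts carry exact 95% intervals. These cover counting error only. Totals of 4185241 to 25104240 counts set the precision.

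The members, their roles and the other gene lists were chosen with earlier results of these data known. Values in every library were given for the member with the highest CPM in metatarsal controls and the one with the largest difference at 0 MPa in each role group, the myogenic factors, Tnni2, Tnnt3, and the members past the threshold or with the 2 smallest p-values in each pressure comparison. Of the other muscle lists the 2 highest and 2 lowest differences were named. Where more libraries or members appear, they were added after their values were seen. The fit was tested on simulated data with known changes, set only in genes above a mean of 1 CPM. Of true log2 changes of 1 it called 30% between control tissues, 23% in hip caps at 50 MPa and 57% in metatarsals at 50 MPa. Of changes of 2 it called 72%, 67% and 85%. Many changes of these sizes would thus be missed, and the scarce members of hip caps were not covered. Alternatives were DESeq2 1.42.0, other scaling, filters and batch terms, all 24 libraries, a replicate block and leaving out each library. Protein sequences were not used here.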

Additional observations from a re-analysis of the deposited data

Results flagged for a closer look

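Several libraries stood apart from the other 3 of their group, by a test of the gap that chance passes in about 1 in 20 groups of 4. Most of these were values of a library in which many members were high together. Among hip caps at 5 MPa, replicate 4 had a summed level of all 40 members of 102 CPM (the others 54.4 to 62.0) and 0.244 CPM of Myod1 (0.0515 to 0.0703), from 5 counts. Among metatarsal controls, replicate 4 had a summed level of 3253 CPM (1337 to 1660), with 2282 CPM of the sarcomere proteins common to all fibres (970 to 1171) and 112 CPM of the slow isoforms (46.9 to 57.2). In the same library Ttn was at 1921 CPM (798 to 972), Neb at 174 CPM (104 to 113), Tnni2 at 16.1 CPM (7.27 to 8.41), Tnnt3 at 27.6 CPM (13.6 to 15.8), Ckm at 2.55 CPM (1.53 to 1.66) and Myh4 at 0.618 CPM (0.107 to 0.191).

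Among metatarsals at 5 MPa, replicate 4 had 4.68 CPM of Myh4 (0 to 0.118), from 110 counts. Its other adult fast chains stayed low, with 0.298 CPM of Myh1 and no count of Myh2. Among metatarsals at 50 MPa, replicate 3 had a summed level of the adult fast isoforms of 104 CPM (33.1 to 44.8), with 112 CPM of Actc1 (40.4 to 52.3), 24.9 CPM of Tnnc2 (7.12 to 8.39), 12.8 CPM of Myod1 (5.03 to 6.15), 0.601 CPM of Myf6 (0.0762 to 0.132), 12.6 CPM of Tnni2 (5.12 to 6.15) and 24.4 CPM of Tnnt3 (7.14 to 7.97).

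The change of Ttn at 50 MPa differed between the tissues by 2.76 on the log2 scale (edgeR's quasi-likelihood test of the interaction, adjusted p = 0.044): among the libraries used, Ttn was higher than all controls in 3 of 3 hip caps and below the lowest control in 3 of 4 metatarsals. The left-out hip cap control of replicate 4 had 35.8 CPM of Ttn, above all 3 of these hip caps.

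The libraries left out by the study also held counts of these genes. In the hip cap control of replicate 4, 16 members were above the highest of the controls used, and in the 50 MPa hip cap of replicate 2, 37 were, where 32.8% and 44.1% of all genes tested were.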

How the results depend on the processing

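The number of members called lower in hip caps than in metatarsals stayed within 1.5 times under every alternative other than leaving out a library, except at 50 MPa, where all 24 libraries gave 12 in place of 25. Counts of members called higher were small and moved. Between controls 2 were called, 1 with library sizes alone, 1 without a filter, 1 with the replicate block and 0 with all 24 libraries. At 5 MPa the 1 became 0 with library sizes alone, no filter, all 24 libraries or no batch terms, and at 50 MPa 0 with the first 3 of these and 2 with no batch terms. In hip caps at 5 MPa, 3 higher and 1 lower were called with no batch terms and 2 higher with library type alone. At 50 MPa the 1 became 0 with library sizes alone, no filter, all 24 libraries or hip caps alone. For the interaction at 50 MPa it became 3 with DESeq2 and 0 with library sizes alone, no filter, all 24 libraries, no batch terms or library type alone. The cause was not tested. Library sizes alone gave summed levels of 53.6 CPM in hip cap controls, 65.7 CPM in hip caps at 50 MPa and 2744 CPM in metatarsals at 5 MPa, and moved the median log2 difference of all genes between controls from -0.08 to -0.97.

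Leaving out each library in turn gave 0 to 2 higher and 21 to 30 lower between controls, 0 to 2 higher and 31 lower at 5 MPa, and 0 to 1 higher and 4 to 27 lower at 50 MPa, with 4 without the 50 MPa metatarsal of replicate 4. In hip caps at 50 MPa and in the interaction at 50 MPa it gave 0 to 1 higher.

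Directions turned for Tnnt3 between controls with the replicate block (0.02; -0.41 to 0.06 with single libraries left out), for Myh4 with library sizes alone (-0.53 between controls, -0.57 at 5 MPa), with single libraries left out (-1.23 to 1.36 and -1.24 to 4.34) and in metatarsals at 5 MPa (-1.67 to 3.54), for Tnni2 at 5 MPa (-0.00) and Myl3 at 50 MPa (-0.13) with library sizes alone, and with all 24 libraries at 50 MPa for Cacna1s (0.24), Myf5 (0.41), Pax7 (1.69) and Ckm (0.01). Libraries of equal replicate number correlated at -0.099 to 0.165 after their group means were removed. Libraries of unequal number were not set beside these, so that pairing cannot be decided. Apart from the changes given, the replicate block lost the calls of Pax7 between controls (adjusted p = 0.0749) and Tnnc2 at 50 MPa (adjusted p = 0.0638). Libraries of 1 run and 1 library type could be compared only at 5 MPa (1 higher, 30 lower) and within metatarsals (0 called). Many members had 0 to 10 counts in hip caps, which limits the precision there. The library totals of the tissues overlapped.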
